A study of Mus musculus with 6 samples.

Results

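The integrins, laminins and nidogens on the array were described in mouse forelimb autopods, the hand plates of the embryo, by comparing cells that carried the Sox9-EGFP reporter with cells that did not. The genes were chosen by name alone. Every non-control probe named for an integrin alpha chain, an integrin beta chain, a laminin chain or a nidogen was taken, which gave 45 of the 55681 probes and 34 genes. These were 13 integrin alpha chains, 8 integrin beta chains, 11 laminin chains and 2 nidogens. Of the 34 genes, 25 were bright enough to be tested, among 13197 genes tested in all.

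Embryos were at stage E11.5, on a C57BL/6 background, and had EGFP knocked into the Sox9 locus, which both groups of cells therefore shared. The 2 groups, cells positive and cells negative for Sox9-EGFP, were separated by flow cytometry and had 3 samples each. A sample pooled about 10 autopods, and was measured on a 1-colour Agilent array of its own. The sources used here do not say whether samples came from separate litters, nor where the sorting gates lay, so the p-values measure only the spread between these samples. EGFP is a stable protein, so the sort separates cells by reporter protein and not by the transcription of Sox9 at that moment.

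Integrins are receptors of the cell surface made of 1 alpha and 1 beta chain, and the pair sets which matrix protein is bound: collagens, laminins or proteins such as fibronectin and vitronectin. Laminins are trimers of an alpha, a beta and a gamma chain that assemble into the basement membrane, and nidogens link the laminin layer to type IV collagen. In the limb bud a basement membrane lies under the ectoderm and around vessels and nerves, and the digit primordia condense out of mesenchyme that is rich in fibronectin and fibrillar collagen.

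Levels are given as log2 signal relative to the 75th percentile of the array, and differences as Sox9-EGFP positive minus Sox9-EGFP negative with the standard error of the limma fit (n = 3 per group). A gene was called when its p-value, adjusted by the Benjamini-Hochberg method over all 13197 genes, was under 0.05. The level of a probe depends on its sequence, so levels are compared between groups and never between genes. The 75th percentile of the signal was 126 on the array of positive replicate 1 and lay between 385 and 478 on the others. The dimmest spot well above background lay at −2.73 on that array, against −4.77 to −4.53 on the other 5, so weakly expressed genes were measured less well there. The headers place 1 array of each group on each of 3 slides, and positive replicate 1 shared its slide with negative replicate 2. Over all tested genes the median difference was −0.18 on this scale, against −0.04 in the authors' quantile-normalized values, and a difference is best read relative to that median. Of the called genes 69.7% were lower in positive cells, against 55.4% in the authors' values and 53.7% to 54.7% under the other scalings.

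The labels describe the cells as mesenchymal. All 7 genes listed as markers of limb mesenchyme were well above background on all 6 arrays, and 5 of the 6 genes listed for chondrogenic condensations were called higher in positive cells, among them Sox9 by 4.37 ± 0.19, Col2a1 by 5.19 ± 0.20, Bmpr1b by 3.16 ± 0.19 and Col9a1 by 2.63 ± 0.15. Sox6, the remaining one of the 5, was named after its values were seen. It was at least 12.3-fold higher, since it was not well above background on any negative array. It thus entered the test through positive cells. Markers of other cell types were also found and are given beside the integrins they bear on. These are mixed samples, so fewer cells of a type and less RNA per cell cannot be told apart.

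Of the 25 tested genes, 2 were called higher in Sox9-EGFP positive cells, against 10.6% of all tested genes, and 7 were called lower, against 24.4% of all tested genes. The 9 called genes stand against 35.0% of all genes called in either direction, so on this scale the share among the tested integrins, laminins and nidogens was near the background. The background moved with the scaling: in the authors' values 6 of the 25 genes were called lower, against 14.5% of all tested genes, and after quantile normalization 6, against 13.3%. Itgav and Itgb5, an alpha and a beta chain that pair into a vitronectin receptor, were the 2 higher genes, by 1.48-fold and 1.35-fold. The 7 lower genes were Itga1, Itga4, Itgb3, Itgb7, Lama1, Lamb1 and Nid1. On this scale Itga4 was 8.03-fold lower, Lama1 4.07-fold, Itgb3 3.35-fold and Nid1 2.39-fold, and the other 3 less than that. The order depends on the scale for Itga4 and Itgb3, which were not above background on positive replicate 1: in the authors' normalized values the log2 differences were −1.59 for Itga4 and −0.64 for Itgb3, against −1.74 for Lama1 and −0.99 for Nid1. The groups did not overlap in 10 of the 25 genes, against 51.3% of all tested genes. The median difference of the 25 genes was −0.23, near the −0.18 of all genes.

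**Figure D1:**
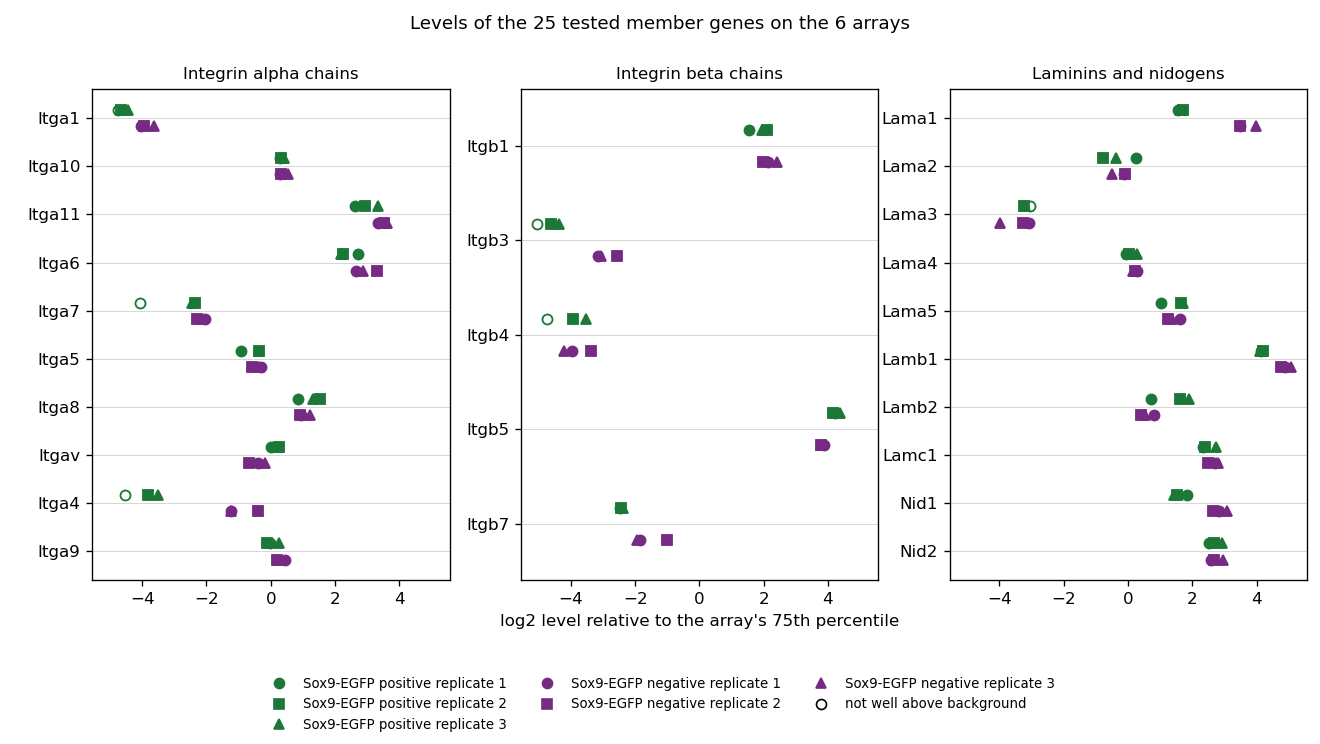
Level of each of the 25 tested genes on each array, as log2 signal relative to the array's 75th percentile (x axis), with Sox9-EGFP positive arrays in green above Sox9-EGFP negative arrays in purple. Open symbols mark arrays on which the probe was not well above background. Lama1, Lamb1, Nid1 and Itga4 show the groups apart, while Nid2, Lamc1 and Itga10 lie on top of each other.

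Not every gene had an equal chance of being tested. A gene entered the test when its probe passed the scanner's background limit on each of the 3 arrays of either group. Of the 25 genes, 19 were above background on all 6 arrays. The other 6, Itga1, Itga4, Itga7, Itgb3, Itgb4 and Lama3, were above background on all 3 negative arrays and on 2 of the 3 positive arrays, missing on positive replicate 1 each time. They entered the test through Sox9-EGFP negative cells, so the lower calls of Itga1, Itga4 and Itgb3 say nothing about the 34 genes as a set. Restricting the test to genes above background on all 6 arrays left 19 of the genes, of which 2 were called higher and 4 lower. Of all 11771 genes tested that way, 1296 were called higher and 3191, or 27.1%, lower.

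Among the fibronectin and vitronectin receptors, which recognise the RGD motif, 1 of 3 tested alpha chains was called higher, against 10.6% of all tested genes. Itgav, the alpha chain of the vitronectin receptors, had levels of 0.02, 0.25 and 0.16 on the positive arrays, against −0.39, −0.68 and −0.19 on the negative arrays. All 3 positive arrays lay above all 3 negative ones. The difference was 0.56 ± 0.16 (adjusted p = 0.0338, limma), and it was 0.70, 0.44 and 0.55 on the 3 slides (adjusted p = 0.0199 when slide was blocked). Itgb5, its partner chain in a vitronectin receptor, had levels of 4.22, 4.17 and 4.38 on the positive arrays, against 3.88, 3.79 and 3.79 on the negative arrays. The groups did not overlap, and the spread within each was small. The difference of Itgb5 was 0.43 ± 0.11 (adjusted p = 0.0253, limma), with 0.43, 0.37 and 0.49 on the slides (adjusted p = 0.0302 when slide was blocked). In the authors' normalized values Itgb5 differed by 0.74 and Itgav by 0.47. Both calls were close to the threshold. With replicate number as a block neither passed (adjusted p = 0.103 for Itgav and 0.117 for Itgb5, limma). Leaving out positive replicate 2 (0.51, adjusted p = 0.0951), positive replicate 3 (0.55, adjusted p = 0.0944), negative replicate 1 (0.58, adjusted p = 0.0965) or negative replicate 2 (0.43, adjusted p = 0.0709) ended the call of Itgav. That of Itgb5 ended when positive replicate 3 was left out (0.37, adjusted p = 0.0811) or any 1 negative array (0.42 to 0.46, adjusted p = 0.0645 to 0.0870).

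The promoters of these 2 genes, the only ones called higher, are shown from RefSeq on the GRCm38.p6 build, 250 bases before to 50 bases after the start on the strand of the gene, with matches to GGGCGG, the core of the binding site of Sp1, in capitals on either strand.
Itgav, chr2:83724147-83724446, + strand: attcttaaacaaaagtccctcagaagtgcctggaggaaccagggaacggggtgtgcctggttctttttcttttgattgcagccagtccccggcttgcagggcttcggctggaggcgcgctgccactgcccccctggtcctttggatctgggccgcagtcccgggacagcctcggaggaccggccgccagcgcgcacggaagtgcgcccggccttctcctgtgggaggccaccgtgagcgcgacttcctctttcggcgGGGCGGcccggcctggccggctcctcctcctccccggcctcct
Itgb5, chr16:33829415-33829714, + strand: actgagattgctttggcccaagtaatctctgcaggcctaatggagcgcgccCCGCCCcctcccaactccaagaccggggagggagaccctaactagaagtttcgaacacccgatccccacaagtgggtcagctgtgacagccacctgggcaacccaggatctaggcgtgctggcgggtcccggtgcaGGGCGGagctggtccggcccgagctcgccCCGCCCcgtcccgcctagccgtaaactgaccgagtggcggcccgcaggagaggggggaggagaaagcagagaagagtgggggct
Itgav held 1 match, whose first base was at position 8 after the start, and Itgb5 held 3, at positions −199, −63 and −34. Of all 32851 promoter windows in the table, 35.7% held this motif, and of 25 windows that matched 22 of the 34 genes, 12 did. Neither promoter held ACAAAG or AACAAT, hexamers that SOX proteins can bind, which were found in 6147 and 3521 of all windows and in 2 of the 25 each. TATAAA was in none of the 25 windows and in 13.6% of all windows. A match is only a description of the letters in the window.

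The other alpha chains of this class were not called. Itga5, the alpha chain of the main fibronectin receptor, had levels of −0.93, −0.36 and −0.36 on the positive arrays, against −0.30, −0.60 and −0.35 on the negative arrays. The groups overlapped, with a difference of −0.13 ± 0.19 and a 95% interval from −0.60 to 0.33. Itga8, which binds nephronectin, had 0.86, 1.52 and 1.31 on the positive arrays, against 0.94, 0.90 and 1.21 on the negative arrays, a difference of 0.21 ± 0.20 (adjusted p = 0.443, limma). The beta chain Itgb1, which pairs with most alpha chains and so sits in receptors for collagen, laminin and fibronectin, had 1.54, 2.11 and 1.93 on the positive arrays, against 2.12, 2.0 and 2.42 on the negative arrays. Positive replicate 2 lay within the range of the negative arrays, and the difference of −0.32 ± 0.19 did not pass (adjusted p = 0.245, limma), with a 95% interval from −0.78 to 0.15.

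Itgb3, the other beta chain with which Itgav forms a vitronectin receptor and the partner of Itga2b on platelets, was called lower. Its levels were −5.04, −4.61 and −4.36 on the positive arrays, against −3.14, −2.56 and −3.07 on the negative arrays. The groups were apart, and positive replicate 1 was not above background. The difference was −1.75 ± 0.24 (adjusted p = 0.00338, limma), and it was −2.48, −1.54 and −1.22 on the slides (adjusted p = 0.0117 when slide was blocked). The size depends on how background was treated, since it was −0.64 in the authors' values, −0.65 after normexp correction with quantile normalization and −2.47 after quantile normalization of the processed signals. A second Itgb3 probe, about 3.0 kb from the first on chromosome 11, was above background on 1 positive array and no negative one.

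Itga4 showed the largest difference of the 25 genes on the 75th percentile scale. It encodes the alpha chain that, with Itgb1 or Itgb7, binds fibronectin and Vcam1. Its levels were −4.54, −3.81 and −3.52 on the positive arrays, against −1.23, −0.40 and −1.23 on the negative arrays. The groups lay far apart, with negative replicate 2 the highest and positive replicate 1, which was not above background, the lowest. The difference was −3.01 ± 0.34 (adjusted p = 0.00192, limma), and it was −4.14, −2.58 and −2.30 on the slides (adjusted p = 0.0081 when slide was blocked). In the authors' values it was −1.59 and after normexp correction −1.64, so the fold is uncertain while the call was kept under all alternatives in which Itga4 was tested. Without negative replicate 2 it was −2.73, and with positive replicate 1 and negative replicate 2 both left out it was −2.44 (adjusted p = 0.00144, limma).

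The 2 Itga4 probes disagreed, and the promoter and the silent probe are printed for that reason. The probe used here lies at chr2:79173193-79173252 of the mm9 build, the build of all probe positions. The second lies 18.1 kb upstream, spans an intron in the genome and was not above background on any array, with levels between −6.77 and −4.94. Its sequence is in lower case, and in the promoter, given on GRCm38.p6, the capitals mark the GGGCGG match at position −114.
Itga4 probe across an intron, chr2:79153985-79155115, + strand: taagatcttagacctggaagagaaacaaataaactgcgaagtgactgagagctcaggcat
Itga4, chr2:79255176-79255475, + strand: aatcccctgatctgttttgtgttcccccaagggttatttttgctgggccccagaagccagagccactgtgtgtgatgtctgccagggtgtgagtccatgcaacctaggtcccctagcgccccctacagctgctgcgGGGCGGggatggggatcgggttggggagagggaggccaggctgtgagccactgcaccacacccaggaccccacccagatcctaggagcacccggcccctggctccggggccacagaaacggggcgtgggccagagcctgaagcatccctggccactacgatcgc

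Itgb7, a partner of Itga4 best known from lymphocytes that home to the gut, had levels of −2.47, −2.44 and −2.37 on the positive arrays, against −1.86, −0.99 and −1.93 on the negative arrays. The groups did not overlap, and negative replicate 2 stood above the other negative arrays. The difference was −0.83 ± 0.26 (adjusted p = 0.0480, limma), with −1.48, −0.51 and −0.51 on the slides (adjusted p = 0.0478 when slide was blocked). Without negative replicate 2 the difference shrank to −0.53 and stayed called (adjusted p = 0.0270, limma), whereas leaving out any other single array lost the call (−1.0 to −0.81, adjusted p = 0.0603 to 0.108). Itga9, the relative of Itga4 that binds tenascin, was not called. It had −0.03, −0.12 and 0.25 on the positive arrays, against 0.45, 0.20 and 0.21 on the negative arrays, with overlap and a difference of −0.25 ± 0.14 (adjusted p = 0.212, limma). Vcam1, the cell-surface ligand of the Itga4 receptors, was called lower (−0.88 ± 0.10), and so was Fn1, fibronectin (−0.60 ± 0.13).

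Markers of muscle and blood cells were read beside these integrins. Of 7 muscle precursor markers 5 were tested and 4 called lower in positive cells, against 24.4% of all tested genes. These 4 entered the test through negative cells, so their calls say nothing about the list as a set. Lbx1, a homeobox gene of migrating limb muscle precursors, differed by −3.60 ± 0.39, Pax3 was at least 4.19-fold lower, Myog at least 2.15-fold lower and Myod1 at least 1.80-fold lower. Pax3, Myog and Myod1 were above background on no positive array, while Pax7 and Myf5 were above background on no array at all. The summed linear level of the list was 0.289, 0.147 and 0.175 on the positive arrays, against 1.47, 1.53 and 0.644 on the negative arrays. Of the 6 platelet markers 2 were tested. Pf4, a platelet chemokine, was not above background on any positive array and was at least 11.4-fold lower, while Gp1bb differed by 0.17 ± 0.21 and was not called. Pf4 too entered the test through negative cells. The summed level of the list was 0.296, 0.158 and 0.219 on the positive arrays, against 0.583, 1.97 and 0.707 on the negative arrays.

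Macrophage and red cell markers were high on a single array, negative replicate 2. The summed level of the 9 macrophage markers was 23.7 there, against 0.469 to 2.24 on the other 5 arrays, and that of the 6 erythroid markers was 43.0, against 1.08 to 4.96. Csf1r, the macrophage growth factor receptor, had 0.80, −0.58 and 0.12 on the positive arrays, against 0.40, 3.47 and −1.54 on the negative arrays. The embryonic globin genes Hbb-y and Hbb-bh1 reached 4.72 and 2.89 on negative replicate 2 and were not called. Of the 8 endothelial markers 2 were tested and neither Kdr (0.36 ± 0.52) nor Pecam1 (−0.11 ± 0.28) was called. Itga4, Itgb3 and Itgb7 were each highest on negative replicate 2 as well, and were called without it. The part of blood or muscle cells in these differences was not tested.

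**Figure D2:**
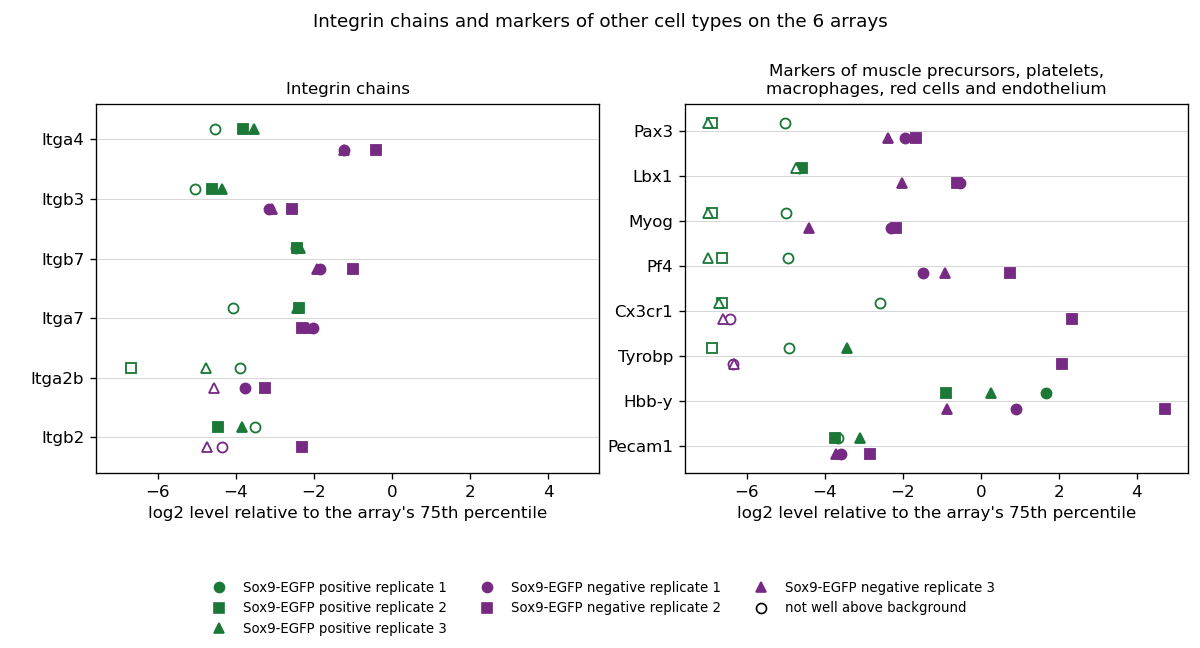
Levels of 6 integrin chains (left) and of markers of muscle precursors, platelets, macrophages, red cells and endothelium (right) on each array, as log2 signal relative to the array's 75th percentile. Green symbols are Sox9-EGFP positive arrays, purple ones Sox9-EGFP negative arrays, and open symbols were not well above background. Cx3cr1 and Tyrobp stand out on negative replicate 2 (purple squares), while Pax3 and Pf4 were above background on all 3 negative arrays and no positive one.

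Integrin chains restricted to blood cells were mostly near background. Itga2b, the platelet alpha chain that pairs with Itgb3, was above background on negative replicates 1 and 2 only. Itgb2, the beta chain of the leukocyte integrins, was above background on 3 arrays, positive replicates 2 and 3 and negative replicate 2, where it was highest at −2.32. Neither gene was tested. Of 5 leukocyte alpha chains outside the name rule 1 was tested, Itgam, which was not called (1.41 ± 0.55, adjusted p = 0.0908, limma). Unlike the others, Itgam was above background on all 6 arrays, with 4.64, 3.18 and 2.78 on the positive arrays, against 1.77, 2.86 and 1.73 on the negative arrays. It was called higher in positive cells when slide was blocked (adjusted p = 0.00754), in the authors' values (1.59, adjusted p = 0.0425) and after normexp correction (1.62, adjusted p = 0.0465), all by limma. The same held with array quality weights (1.26, adjusted p = 0.0178, limma) and on slides 2 and 3 alone (1.23, adjusted p = 0.0080, limma). Under the other alternatives Itgam was not called, and averaging its probes gave a difference of 0.83.

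Collagen receptors contributed 1 lower call among 3 tested alpha chains, against 24.4% of all tested genes. Itga1, which prefers the collagen of basement membranes, had levels of −4.77, −4.66 and −4.46 on the positive arrays, against −4.03, −3.95 and −3.64 on the negative arrays. The groups did not overlap, but all values were close to the lower end of what the arrays measured. The difference was −0.75 ± 0.15 (adjusted p = 0.0120, limma), and it was −0.82, −1.02 and −0.43 on the slides (adjusted p = 0.0208 when slide was blocked). It was −0.25 in the authors' values and not called there (adjusted p = 0.156). The second Itga1 probe, 63.0 kb away on chromosome 13, was above background on positive replicates 2 and 3 and negative replicate 2, with levels of −4.86, −3.91 and −3.52 on the positive arrays, against −5.59, −3.85 and −5.39 on the negative arrays, so it did not show the lower level of positive cells.

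Both Itga1 probes cross an intron in the genome and are printed, in lower case, because they gave different results.
Itga1 first probe, chr13:115756765-115758419, - strand: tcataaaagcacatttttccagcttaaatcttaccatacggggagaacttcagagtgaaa
Itga1 second probe, chr13:115821387-115825525, - strand: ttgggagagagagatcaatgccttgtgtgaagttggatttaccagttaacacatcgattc

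Itga11, a receptor of fibrillar collagen on mesenchymal cells, had 2.61, 2.92 and 3.35 on the positive arrays, against 3.35, 3.52 and 3.60 on the negative arrays. The groups met at 3.35, and the difference of −0.53 ± 0.20 was not called (adjusted p = 0.0899, limma), although it was −0.73 and called without positive replicate 3 (adjusted p = 0.0341, limma). Itga10, the collagen receptor known from cartilage, showed no such spread. Its levels were 0.29, 0.31 and 0.41 on the positive arrays, against 0.30, 0.31 and 0.54 on the negative arrays, a difference of −0.05 ± 0.12 with a 95% interval from −0.33 to 0.24. A second Itga10 probe that overlaps the first by 54 bases gave −0.01. Itga2, the collagen receptor of platelets and epithelia, was above background on no array.

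Laminin receptors gave no call by limma among 3 tested chains, Itga6, Itga7 and Itgb4, while 35.0% of all tested genes were called. Of the 3 chains 1 had an unadjusted p under 0.05. That was Itga6, a receptor of epithelia, vessels and other cells on a basement membrane, with 2.73, 2.24 and 2.18 on the positive arrays, against 2.64, 3.29 and 2.87 on the negative arrays. The groups overlapped through positive replicate 1 and negative replicate 1. The difference was −0.55 ± 0.23 (adjusted p = 0.107, limma). It was −0.56, −0.63 and −0.45 on the slides and called when slide was blocked (adjusted p = 0.0182) or without positive replicate 1 (−0.72, adjusted p = 0.0381). Itga7, the laminin receptor best known from muscle, had −4.08, −2.37 and −2.44 on the positive arrays, against −2.04, −2.31 and −2.15 on the negative arrays. Positive replicate 1, where it was not above background, made most of the difference of −0.80 ± 0.46 (adjusted p = 0.222, limma), which was −0.24 without that array. Itgb4, the partner of Itga6 in the hemidesmosomes of epithelia, had −4.75, −3.94 and −3.54 on the positive arrays, against −3.97, −3.36 and −4.22 on the negative arrays, with overlap and a difference of −0.23 ± 0.36. Itga3, a laminin receptor of epithelia, was above background on 1 array of each group and was not tested.

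Among the laminins, 2 of the 8 tested chains were called, both lower in positive cells, against 24.4% of all tested genes called lower. Lama1, the alpha chain of the earliest laminin of the embryo, had levels of 1.56, 1.71 and 1.61 on the positive arrays, against 3.48, 3.48 and 3.98 on the negative arrays. The groups lay far apart with little spread in the positive group. The difference was −2.03 ± 0.17 (adjusted p = 0.000713, limma), and it was −1.93, −2.28 and −1.87 on the slides (adjusted p = 0.00222 when slide was blocked). In the authors' values it was −1.74. Lamb1, a beta chain that joins Lama1 in that trimer, had 4.12, 4.19 and 4.12 on the positive arrays, against 4.88, 4.78 and 5.06 on the negative arrays. All positive arrays lay below all negative ones. The difference was −0.76 ± 0.12 (adjusted p = 0.00486, limma), with −0.65, −0.87 and −0.76 on the slides (adjusted p = 0.00942 when slide was blocked), and it was −0.40 in the authors' values, where it was still called (adjusted p = 0.0281).

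The gamma chain of the same trimer did not follow. Lamc1, shared by most laminins, had 2.34, 2.39 and 2.74 on the positive arrays, against 2.70, 2.49 and 2.79 on the negative arrays. The groups overlapped, and the difference was −0.17 ± 0.15 (adjusted p = 0.419, limma), with a 95% interval from −0.54 to 0.20 and 0.04 in the authors' values. Lamb2, the beta chain that replaces Lamb1 in laminins of synapses and kidney filters, had 0.72, 1.61 and 1.91 on the positive arrays, against 0.82, 0.41 and 0.52 on the negative arrays. Positive replicates 2 and 3 lay above every negative array and positive replicate 1 within their range. The difference of 0.83 ± 0.32 was not called (adjusted p = 0.0867, limma), but it was called without positive replicate 1 (1.18, adjusted p = 0.00543) and when slide was blocked (adjusted p = 0.0318), the slides giving 0.31, 1.09 and 1.1.

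The remaining laminin alpha chains were not called. Lama5, of most epithelial and vascular basement membranes, had 1.02, 1.64 and 1.71 on the positive arrays, against 1.61, 1.24 and 1.35 on the negative arrays, a difference of 0.05 ± 0.22 with a 95% interval from −0.47 to 0.58. Lama4, the chain of vessel walls, had −0.07, 0.02 and 0.29 on the positive arrays, against 0.29, 0.23 and 0.16 on the negative arrays, a difference of −0.15 ± 0.13. Lama2, the chain of muscle and nerve, had 0.26, −0.79 and −0.38 on the positive arrays, against −0.13, −0.10 and −0.51 on the negative arrays. The spread of Lama2 among positive arrays exceeded its difference of −0.06 ± 0.28, and its second probe gave 0.06. Lama3, the alpha chain of the epidermal laminin, had −3.06, −3.22 and −3.21 on the positive arrays, against −3.07, −3.27 and −3.99 on the negative arrays, a difference of 0.27 ± 0.24 that was −0.04 in the authors' values. The beta chain Lamb3 was above background on no array, and the gamma chain Lamc3 on 1 positive array.

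Nid1 was called lower and Nid2 was not. Nid1 had 1.84, 1.52 and 1.44 on the positive arrays, against 2.83, 2.66 and 3.08 on the negative arrays. The groups did not overlap. The difference was −1.26 ± 0.17 (adjusted p = 0.00319, limma), and it was −0.82, −1.56 and −1.39 on the slides (adjusted p = 0.00966 when slide was blocked) and −0.99 in the authors' values. Nid2, the second nidogen, had 2.51, 2.68 and 2.94 on the positive arrays, against 2.60, 2.67 and 2.96 on the negative arrays. Its groups covered nearly the same range, with a difference of −0.03 ± 0.16 and a 95% interval from −0.43 to 0.36.

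Nid1 had 3 probes, each of which could be tested in a fit over every probe kept. A second probe, 1.6 kb from the first, was called lower as well (−1.42 ± 0.39, adjusted p = 0.0484, limma). This second probe had −4.96, −4.00 and −4.28 on the positive arrays, against −2.79, −3.71 and −2.50 on the negative arrays. Being above background on 2 positive and all 3 negative arrays, it entered the fit through negative cells, so its call is no separate support. The third probe crosses an intron at the other end of the gene, 46.8 kb from its neighbour, and was not called (−0.55 ± 0.43, adjusted p = 0.414, limma). It had −1.56, −3.11 and −3.10 on the positive arrays, against −1.91, −2.10 and −2.11 on the negative arrays, so that positive replicate 1 lay above and positive replicates 2 and 3 below every negative array. The sequence of this probe is printed in lower case because it was the exception, and the promoter of Nid1, on GRCm38.p6, has the GGGCGG match at position −67 in capitals.
Nid1 probe across an intron, chr13:13530138-13555992, + strand: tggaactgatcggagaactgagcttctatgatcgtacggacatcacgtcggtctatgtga
Nid1, chr13:13437352-13437651, + strand: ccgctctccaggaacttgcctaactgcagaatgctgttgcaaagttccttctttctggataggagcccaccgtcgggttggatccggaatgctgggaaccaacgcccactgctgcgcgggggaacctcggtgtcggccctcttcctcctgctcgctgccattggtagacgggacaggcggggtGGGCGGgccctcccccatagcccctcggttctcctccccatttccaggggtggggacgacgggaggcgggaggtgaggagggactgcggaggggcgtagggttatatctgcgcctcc

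**Figure D3:**
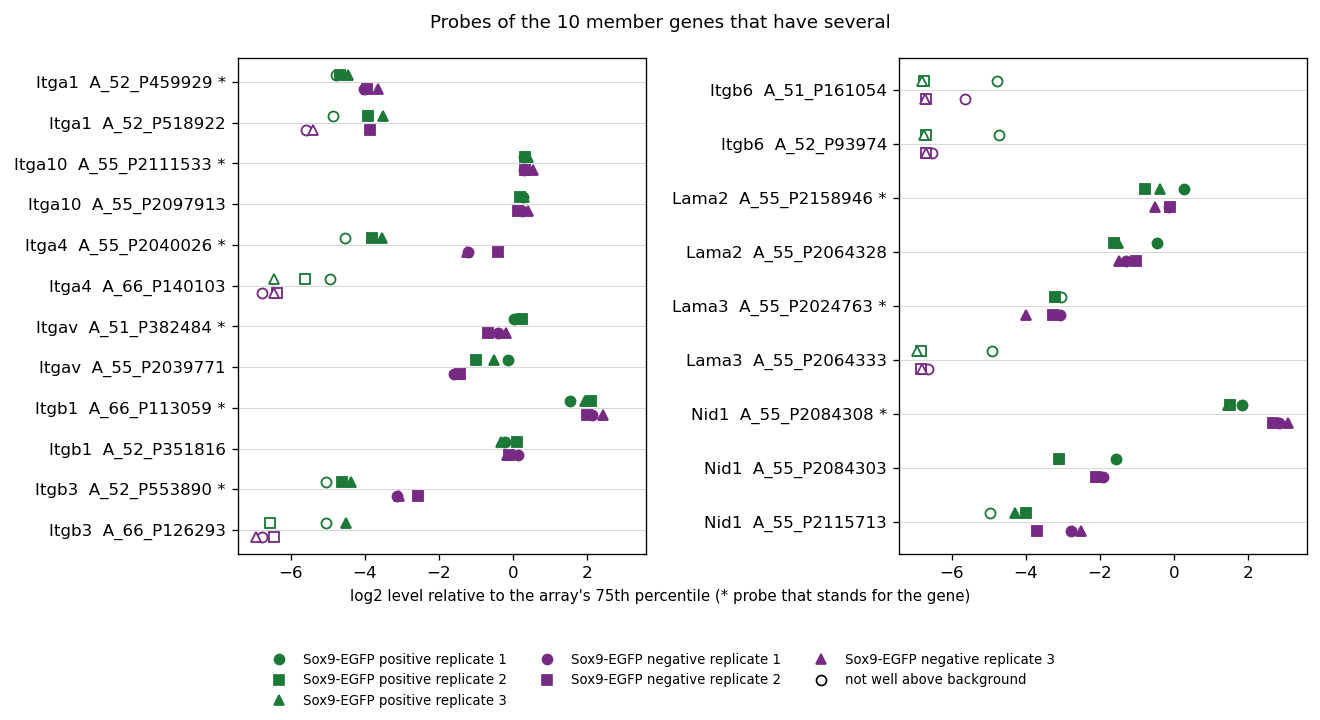
Levels of all probes of the 10 genes that have several, as log2 signal relative to the array's 75th percentile, with Sox9-EGFP positive arrays in green above Sox9-EGFP negative arrays in purple and an asterisk on the probe that stands for the gene. Open symbols were not well above background. Both Itgav probes and 2 of the 3 Nid1 probes show the groups apart, whereas the second probes of Itga4, Itgb3 and Itga1 do not repeat the difference of the first.

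The second Lama3 probe was above background on no array, while the one that stands for the gene was on 5. The second Itgav probe, 2.2 kb from the first on chromosome 2, had −0.14, −1.01 and −0.53 on the positive arrays, against −1.58, −1.43 and −1.46 on the negative arrays. Its groups did not overlap, and in the fit over every probe it differed by 0.93 ± 0.23 (adjusted p = 0.0372, limma) while the first gave 0.56 ± 0.17 (adjusted p = 0.0597, limma). The probe that stands for Itgb1 crosses an intron and the second does not, and they differed by −0.32 ± 0.20 and −0.08 ± 0.17 in that fit, neither of them called.

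Ratios on the same array describe how genes of a trimer or a pair differed from each other. The log2 ratio of Lama1 to Lamc1 on the same array was −0.78, −0.68 and −1.13 in positive cells, against 0.78, 0.99 and 1.20 in negative cells, a difference of −1.85. The ratio of Lamb2 to Lamb1 was −3.41, −2.58 and −2.21 in positive cells, against −4.07, −4.37 and −4.54 in negative cells, a difference of 1.59. The ratio of Nid1 to Nid2 was −0.67, −1.17 and −1.50 in positive cells, against 0.24, −0.01 and 0.12 in negative cells, a difference of −1.22. Only the difference between the groups can be read, since the ratio itself depends on the probes, and these are ratios within an array, which show unequal change of the 2 genes and not that either was constant. They are 3 of 7 ratios chosen after the values were seen. Each of the 7 had an exact two-sided permutation p of 0.1, before and after Benjamini-Hochberg adjustment, which is the smallest that 3 against 3 arrays allow.

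**Figure D4:**
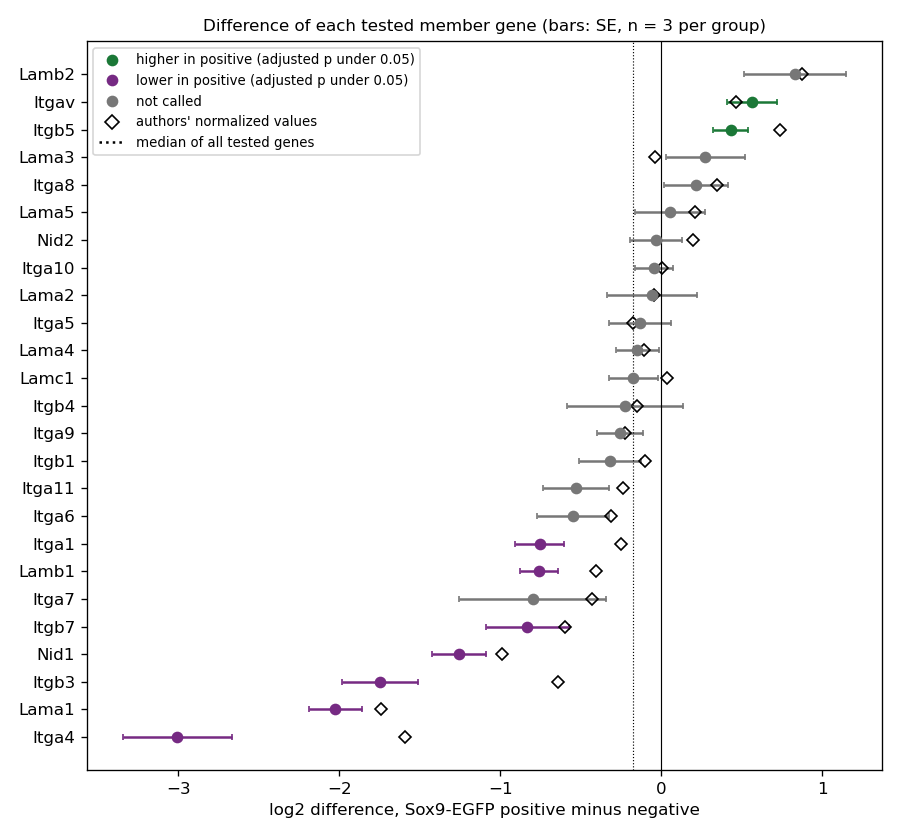
Difference of each of the 25 tested genes on the log2 scale (x axis, Sox9-EGFP positive minus Sox9-EGFP negative), as circles with the standard error of the limma fit and, as open diamonds, the difference in the authors' normalized values. Green circles were called higher, purple ones lower and grey ones not, and the dotted line is the median of all tested genes at −0.18. The diamonds of Itga4 and Itgb3 lie far to the right of their circles, at −1.59 and −0.64.

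The 9 genes that were not tested leave little to compare. Itgb8, a beta chain of receptors that activate latent TGF-beta, was above background on positive replicates 2 and 3, at −4.05 and −3.48, and on no negative array. Its level was −4.23 on positive replicate 1, against −6.80, −5.12 and −6.46 on the negative arrays. The value on positive replicate 1 lay under −2.73, the dimmest spot well above background there. It therefore cannot decide whether the groups overlapped, and Itgb8 did not pass the background filter. Itgb6, its epithelial relative, was above background on no array with either of its 2 probes.

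Other genes of the basement membrane were read beside the laminins and nidogens. Of 20 listed, 15 were tested, 5 were called higher in positive cells and 1 lower, with a median of 0.22 against −0.18 over all genes. Of all tested genes 10.6% were called higher and 24.4% lower. Sparc, a calcium-binding protein of the matrix, had 6.51, 6.68 and 6.73 on the positive arrays, against 3.32, 3.56 and 2.89 on the negative arrays, a difference of 3.39 ± 0.19. Its relative Smoc2 was higher by 3.99 ± 0.46, the type IV collagen chain Col4a5 by 1.22 ± 0.11 and Frem2, of the complex that holds epidermis to dermis, by 0.80 ± 0.18. Hmcn1, the hemicentin, was higher by 1.24 ± 0.32 and is named after its values were seen. The chain of the main type IV collagen, Col4a1, had 2.06, 2.33 and 2.61 on the positive arrays, against 3.25, 3.01 and 3.47 on the negative arrays, and was called lower (−0.91 ± 0.19).

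Ligands of integrins outside the laminins were read beside the receptors. Of 16 listed, 11 were tested, 5 were called higher and 2 lower, against 10.6% and 24.4% of all tested genes. The median was 0.59, and 0.13 in the authors' values. Postn and Spp1 entered the test through positive cells, so their higher calls say nothing about the list as a set. With genes above background on all 6 arrays, 8 were tested, 3 were called higher and 2 lower, with a median of 0.24. Of all 11771 genes tested that way, 1296 were called higher and 27.1% lower. Ccn1, a matricellular ligand of the Itgav receptors, had 1.41, 1.46 and 1.28 on the positive arrays, against −0.79, −1.74 and −1.44 on the negative arrays, a difference of 2.71 ± 0.25. Ccn2, its relative, was higher by 2.59 ± 0.32, and Tgfbi, a ligand induced by TGF-beta, by 1.27 ± 0.16. Postn, periostin, was above background on no negative array and was at least 4.27-fold higher. Spp1, osteopontin, was named after its values were seen and had −2.10, −0.96 and −0.95 on the positive arrays, against −5.99, −3.92 and −6.75 on the negative arrays, of which only negative replicate 2 was above background. The 2 lower genes were Vcam1 and Fn1, given above. Fn1 was not called in the authors' values (−0.31, adjusted p = 0.0936), after quantile normalization (−0.26, adjusted p = 0.193) or after normexp correction (−0.26, adjusted p = 0.153).

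Intracellular partners of integrins were called in both directions. Of 22 listed activators and focal adhesion genes, 20 were tested, 4 were called higher and 4 lower, with a median of −0.05. Over all tested genes the shares were 10.6% higher and 24.4% lower. Fermt2, the kindlin that activates integrins in most tissues, had 2.72, 2.54 and 2.41 on the positive arrays, against 3.83, 3.67 and 3.92 on the negative arrays, a difference of −1.25 ± 0.13 with no overlap. The other lower genes were Tln2, the second talin (−1.11 ± 0.15), the adaptor Lims1 (−0.52 ± 0.16) and zyxin, Zyx (−0.41 ± 0.11). Parvb, an adaptor bound to integrin-linked kinase, was higher by 1.42 ± 0.24, the kinase Src by 0.82 ± 0.24, paxillin, Pxn, by 0.66 ± 0.14 and the tensin Tns1 by 0.53 ± 0.12. Tln1, the main talin, was not called, at 4.55, 4.78 and 4.84 on the positive arrays, against 4.87, 4.86 and 4.82 on the negative arrays. In the authors' values this list had 4 higher and 2 lower calls.

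Ectodermal and nerve markers were checked because both tissues lie on laminin. Of the 9 limb ectoderm markers 6 were tested and 3 were called higher in positive cells, against 10.6% of all tested genes. They were Krt18 by 2.59 ± 0.12, Krt8 by 1.22 ± 0.13 and Trp63 by 1.01 ± 0.29. Epcam (−0.43 ± 0.22), Krt14 (−0.03 ± 0.27) and Esrp1 (0.73 ± 0.56) were not called. Cdh1 and Wnt7a were above background on no array. The summed linear level of that list was 37.1, 24.8 and 22.4 on the positive arrays, against 11.7, 10.9 and 9.28 on the negative arrays. Sox10, of Schwann cells and neural crest, was higher by 1.70 ± 0.43. It was above background on negative replicate 2 alone among the negative arrays, so it entered the test through positive cells. The mesenchymal markers Col1a1 and Pdgfra were higher by 1.06 ± 0.20 and 0.79 ± 0.12, and Twist1 (−1.92 ± 0.13), Hoxd13 (−1.61 ± 0.20) and Col3a1 (−2.13 ± 0.50) were lower. Their part in the laminin and nidogen differences was not tested.

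In the genome the genes are scattered over 14 chromosomes, with 7 of the 34 on chromosome 2. The probes of Itga2 and Itga1 lie 130.0 kb apart on chromosome 13, and only Itga1 of that pair passed the background filter. Itga4 and Itgav, called in opposite directions, have probes 4.47 Mb apart on chromosome 2.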

How the data were processed

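RNA of 6 sorted samples was measured on 1-colour Agilent 8x60K arrays. Per the file headers, the deposited intensity values come from the authors' run of Feature Extraction 10.7.3.1 and are corrected for background within the array. The deposited series matrix holds log2 values with a median of 6.41 on every array, normalized by the authors, and the sources used here do not give its background correction. For the RNA amount the labels state 100 ng under extraction and 75 ng under labelling.

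Here each processed intensity was taken as log2 minus that array's 75th percentile over 59305 non-control spots. Replicate spots were averaged without outlier spots, and 26490 probes passed the scanner's background limit on each of the 3 arrays of either group, of which 17 were dropped for outlier spots. Each gene was represented by its brightest probe. Probes were named through RefSeq accessions (26300), symbols (2044) or older symbols (355), and 26982 were not named. All 45 integrin, laminin and nidogen probes kept the name in the files. The comparison used limma 3.58.1 (R 4.3.3) over 13197 genes, with Benjamini-Hochberg adjustment at 0.05. An exact test of 3 against 3 arrays cannot give a p under 0.1, so calls rest on the variance limma shares between genes, and the number of arrays limits the precision.

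Every tested gene chosen by name is given with its values. Some untested or listed genes are not reported here. Of the other lists, up to 4 called genes per direction are named by smallest adjusted p, and for markers of other cell types also the brightest. The genes and lists were chosen with earlier results of these data known. The pipeline was tested on simulated data. Same-numbered replicates did not deviate together (correlations −0.274, −0.418 and 0.157), whereas arrays of one slide gave 0.463, 0.358 and 0.229. Same-numbered arrays always lay on different slides, so these correlations cannot decide whether the numbers pair samples. The labels do not say that they do. The alternatives were other normalizations, filters, probe summaries, moderation, weights, blocks for slide and for replicate number, a threshold of 0.01 and leaving out each array. Using slides 2 and 3 alone was added after seeing the data. Promoter sequences are those of RefSeq on GRCm38.p6, while probe positions are mm9.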

Additional observations from a re-analysis of the deposited data

How the results depend on the processing

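Itga4, Itgb3, Lama1, Lamb1 and Nid1 were called lower under every alternative in which they were tested, and no called gene changed sign. The number of genes called among all tested was 4617. It was 2656 without the background filter, 2157 with the replicate block and 2109 at a threshold of 0.01, and it ranged from 2485 to 5176 when 1 array was left out, with 2911 without positive replicate 3, 2542 without negative replicate 1 and 2485 without negative replicate 3. Itgav and Itgb5, the 2 genes called higher, both lost the call without the background filter. The 1 gene called higher there was a beta chain that had failed the filter, against 1082 of all 21237 genes. With array quality weights 4 genes were called higher, among them the laminin chain Lamb2, against 1930 of all 13197 genes. In limma the number of the 25 genes called higher was 0 in the fit on every kept probe (3 at an unadjusted p under 0.05), 0 with the replicate block (2 at an unadjusted p under 0.05) and 0 at a threshold of 0.01, and it ranged from 0 to 3 when 1 array was left out. It was 0 with positive replicate 3 left out, and likewise for negative replicates 1 and 2, and 1 with positive replicate 2 or negative replicate 3 left out. Among all 13197 genes, 1125 were called higher in the fit on every kept probe, 856 with the replicate block and 743 at a threshold of 0.01. Leaving out 1 array gave 895 to 1643. The 7 genes called lower became 4 when all 6 arrays had to be above background, because only 19 genes remained, and ranged from 6 to 7 when 1 array was left out. Whether the replicate numbers pair the samples is not known, so the counts with that block are given as 1 of the alternatives.

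Itgb7 lost its call in 11 of 20 alternatives, Itgav and Itgb5 in 8 of 20 each and Itga1 in 5 of 19, among them the authors' values. Lamb2 and Itga6 gained one in 4 of 20, Itga8 and Itga11 in 1 of 20. On slides 2 and 3 alone, 3 of the 25 genes were called higher and 8 lower, against 1731 and 3985 of all 13197 genes. The cause of these changes was not tested. Signal over background limits Itga1, Itga4, Itga7, Itgb3, Itgb4 and Lama3, which were not above background on positive replicate 1.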
